A study of Mus musculus with 768 samples.

Results

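The nuclear-encoded respiratory chain genes are the genes for oxidative phosphorylation that lie on the chromosomes of the nucleus and not on mitochondrial DNA. They were taken here as every row of the count table whose symbol begins with Nduf followed by a, b, c, s or v, is Sdha, Sdhb, Sdhc or Sdhd, or begins with Uqcr, Cox4 to Cox8 or Atp5. The symbol pattern found 99 of 32679 rows. Of these, 36 were subunits of complex I, 8 complex I assembly factors, 4 subunits of complex II, 8 of complex III, 19 of complex IV and 15 of the ATP synthase. A further 2 rows, Atp5s and Atp5sl, were factors named for the ATP synthase, and 7 rows were pseudogenes whose summed counts per 1e6 (CPM) stayed under 2 in every cell class and mouse. The 92 rows other than the pseudogenes are the members described here, and the pattern reads symbols and not values.

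The cells came from the dentate gyrus, the hippocampal region where neurons are born in adult mice. Of 8 males, 4 were given a mimic of the microRNA miR-132 and 4, the Control mice, a negative control oligonucleotide. Both groups were Nestin:GFP mice of 2 months and received 150 pmol of oligonucleotide in 3 µl with lipofectamine 2000, once a week for 5 weeks. The reporter joins green fluorescent protein to regulatory sequence of Nes, an intermediate filament gene of neural stem cells that vessel cells also use, and cells were sorted for its fluorescence. An "AD" in the text on the tissue is not explained there, and no disease state is assigned here. Sorting took place on 17 and 19 April 2018 with 2 mice of each treatment per date, and every mouse gave 96 wells of which 94 received a cell per the labels. Libraries were made from single cells by Smart-seq2, a full-length cDNA method with no molecular identifiers and no strand information.

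The labels tie wells to mice in a pair of ways that differ. Any given well is listed by 4 sample descriptions, which all belong to 1 mouse, and is also the title of a sample. The readings gave the same mouse for 96 of 768 wells and the same treatment for 384. The descriptions were used as the map, and the titles as an alternative. Every treatment value below rests on that choice. Comparisons between cell classes take the class from each well's own markers, and the map enters there only through the grouping of wells by mouse.

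The respiratory chain sits in the inner mitochondrial membrane. Complexes I and II take electrons from NADH and succinate, complex III hands them to cytochrome c, complex IV passes them to oxygen, and the ATP synthase spends the resulting proton gradient to make ATP. Complexes I, III and IV and the ATP synthase combine nuclear with mitochondrially encoded subunits, while complex II is wholly nuclear. Several complex IV subunits and the c subunit of the ATP synthase come as isoforms from separate genes. Cox4i2 replaces the common Cox4i1 in lung and some other tissues and is known to respond to oxygen, and Ndufa4l2, a hypoxia-induced relative of the complex IV subunit Ndufa4, is known to lower mitochondrial oxygen use. In brain, astrocytes and oligodendrocytes are known for high glycolysis, and neurons for a high demand for oxidative phosphorylation.

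The mimic copied the mature microRNA below, shown because its seed sets which transcripts it can pair with. It is written 5′ to 3′ from RefSeq (GRCm38.p6, chr11:75173723-75173744, plus strand), with the seed, bases 2 to 8, in capitals.
mmu-miR-132-3p: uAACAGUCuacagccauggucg

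The DNA letters that pair with this seed are GACTGTT. At least 1 such site lay in the annotated 3′ UTR of 3 of 91 members with a 3′ UTR, which is 3.30%, against 11.1% of 21103 genes. The members were Cox6c, a small structural subunit of complex IV, Ndufa12, an accessory subunit of complex I, and Ndufab1, the mitochondrial acyl carrier protein, each with 1 site. The median 3′ UTR was 272 bases for members and 1086 bases for all genes, so the shares also differ in the length searched. A seed match is a description of letters and was not tested as a site of action.

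Promoters of respiratory chain genes are known for motifs of NRF1, ETS family factors such as GABP, and YY1. The RefSeq promoter table (250 bases before to 50 after a start, GRCm38.p6) held 74 of the 92 members and 27025 genes in all, and each motif was searched on both strands. The NRF1 core GCGCATGC was in 12 member promoters, 16.2%, against 3.05% of all genes. The ETS core CCGGAAG was in 18, 24.3%, against 9.93%, and the YY1 core AAGATGGC in 10, 13.5%, against 3.19%. At least 1 of the 3 was in 33 members, 44.6%, against 14.9% of all genes. By complex, the YY1 core was in 7 of 32 complex I promoters and in 0 of 14 complex IV promoters. That 0 says only that these letters are not in those windows.

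Of the members described below, 3 promoters are shown, and none of them holds a YY1 core. Uqcrc1 holds 2 overlapping NRF1 cores on opposite strands. Sdhb holds an NRF1 core on the minus strand and an ETS core on the plus strand. Ndufa4, a member called lower in pericyte-like sums, holds none of the 3 motifs. Capitals mark the matches. The windows are chr9:108936398-108936697 (plus strand) for Uqcrc1, chr4:140961021-140961320 (plus strand) for Sdhb and chr6:11907401-11907700 (minus strand) for Ndufa4.
Uqcrc1: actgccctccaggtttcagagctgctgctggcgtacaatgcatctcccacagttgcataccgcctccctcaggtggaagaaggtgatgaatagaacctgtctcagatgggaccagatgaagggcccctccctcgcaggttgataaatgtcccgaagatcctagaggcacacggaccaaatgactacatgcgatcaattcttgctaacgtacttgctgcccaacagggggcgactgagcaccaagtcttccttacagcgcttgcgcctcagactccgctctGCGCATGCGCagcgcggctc
Sdhb: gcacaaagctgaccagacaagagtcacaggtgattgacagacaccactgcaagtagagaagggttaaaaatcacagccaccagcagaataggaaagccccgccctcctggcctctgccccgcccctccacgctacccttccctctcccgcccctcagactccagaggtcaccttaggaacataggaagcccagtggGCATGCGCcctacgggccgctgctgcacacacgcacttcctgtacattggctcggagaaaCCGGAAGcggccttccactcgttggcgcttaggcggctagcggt
Ndufa4: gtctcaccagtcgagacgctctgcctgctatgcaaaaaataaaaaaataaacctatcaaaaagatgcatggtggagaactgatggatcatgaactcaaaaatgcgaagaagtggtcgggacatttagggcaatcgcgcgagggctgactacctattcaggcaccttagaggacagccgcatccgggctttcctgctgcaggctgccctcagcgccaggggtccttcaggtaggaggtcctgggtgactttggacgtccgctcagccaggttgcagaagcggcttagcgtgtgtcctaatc

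A total of 675 wells had at least 50000 counts and 1000 genes, between 75 and 92 in each mouse. The median kept well held 646537 counts over 2741 genes. The kept wells of a mouse summed to between 4.39e+07 and 6.69e+07 counts. Wells were put in classes by the mean level of 12 marker lists that hold no member, giving 301 oligodendrocyte-like, 105 endothelial-like, 92 astrocyte-like, 76 pericyte-like and 34 neuroblast-like wells in the 5 classes compared. The own-class list had all of its markers at 50 CPM or more in each of the 5. In pericyte-like wells 3 of 6 smooth muscle markers and 4 of 7 fibroblast markers were also at 50 CPM or more, with smooth muscle markers summing to 2391 to 6890 CPM by mouse. In endothelial-like wells 2 of 7 pericyte markers were. In neuroblast-like wells 3 of 7 astrocyte markers, summing to 318 to 1253 CPM by mouse, and 2 of 5 mature neuron markers were, beside 3954 to 8139 CPM of their own list. In oligodendrocyte-like wells 2 of 7 astrocyte markers were. Any other list had at most 1 marker at that level in each of the 5. RNA of other cells in these wells was not tested as a source of these counts.

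Summed over the 92 members, the level was highest in pericyte-like wells on the CPM scale and in astrocyte-like wells after scaling between classes. Members made up 16716 ± 2218 CPM in pericyte-like, 15674 ± 1958 in astrocyte-like, 14074 ± 1771 in neuroblast-like, 10187 ± 1264 in endothelial-like and 11410 ± 632 in oligodendrocyte-like sums (SD over 8 mice, 6 for neuroblast-like). CPM is a share of the library. The 8 oligodendrocyte markers summed to 78670 CPM in oligodendrocyte-like wells, and the 7 pericyte markers to 61348 CPM in pericyte-like wells. Their part in the difference between the scales was not tested. TMM scaling sets libraries against each other by the bulk of their genes. Its factors were 0.640 to 0.713 for oligodendrocyte-like, 0.862 to 1.419 for pericyte-like and 1.14 to 1.78 for neuroblast-like sums. On the TMM-scaled CPM scale the members came to 15089 ± 1906 in pericyte-like, 19624 ± 3114 in astrocyte-like, 9782 ± 1404 in neuroblast-like, 10520 ± 2136 in endothelial-like and 16656 ± 662 in oligodendrocyte-like sums. Astrocyte-like sums stood above endothelial-like sums in every mouse on both scales. The position of the pericyte-like and neuroblast-like means against the oligodendrocyte-like mean turned with the scale. After TMM scaling, the pericyte-like sum still stood above the oligodendrocyte-like sum in mice 4, 6 and 7.

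**Figure D1:**
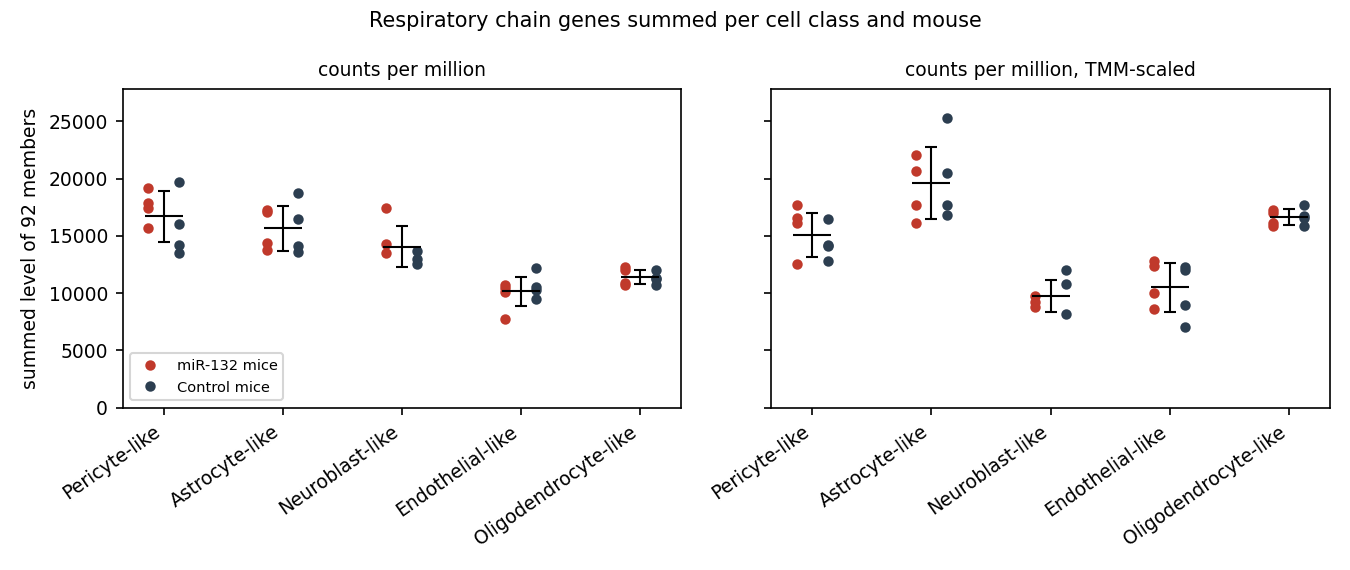
Summed level of the 92 members per mouse and cell class, in CPM (left) and in TMM-scaled CPM (right). Each point is 1 mouse, with miR-132 mice left of Control mice, and bars give the mean ± SD over all mice of the class. Oligodendrocyte-like sums average 11410 CPM, under the pericyte-like 16716 CPM, but 16656 after TMM scaling, above the pericyte-like 15089.

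The gene with the highest level per length over all kept wells was Cox8a, a small subunit of complex IV, at 500 CPM per kb of exon. It was followed by Cox6a1 at 376, Cox4i1 at 365, Atp5b, the catalytic beta subunit of the ATP synthase, at 344, and Cox6b1 at 302 CPM per kb. Thus 4 of the first 5 were complex IV subunits. This order pools all 675 wells, of which 301 were oligodendrocyte-like. Within classes the first gene was Cox4i2 in pericyte-like wells (919 CPM per kb), Cox8a in astrocyte-like (771) and neuroblast-like wells (499), and Cox6a1 in endothelial-like (389.6) and oligodendrocyte-like wells (426). At the other end, the tissue-restricted isoforms Cox6a2, Cox8b, Cox7b2 and Cox7a1 averaged 0.0079, 0.192, 0.297 and 1.80 CPM over kept wells, and had a count in at most 2.37% of them. Cox6a2, Cox7a1 and Cox8b are known from heart and muscle and Cox7b2 from testis. Atp5l, Ndufb4, Atp5g2, Ndufs5 and Cox7c averaged 2.62, 11.1, 22.2, 28.8 and 36.3 CPM, although Cox7c had a count in 81.9% of wells and Atp5g2 in 69.9%. Pseudogene rows found by the pattern include copies of Atp5l, and the sources used here do not say how reads with several matches were counted, so the levels of genes with near-identical copies are uncertain.

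Complex I, which oxidizes NADH and is the largest of the complexes, summed per well to 4870 ± 394 CPM in pericyte-like, 5091 ± 823 in astrocyte-like, 4595 ± 599 in neuroblast-like, 3222 ± 446 in endothelial-like and 3978 ± 325 CPM in oligodendrocyte-like wells (mean of mice ± SD). Endothelial-like wells had the lowest mean of the 5 on the CPM scale, while the median TMM-scaled log2 fold of complex I genes over oligodendrocyte-like sums was -0.97 for neuroblast-like and -0.82 for endothelial-like sums. The ranges over mice of pericyte-like and astrocyte-like wells overlapped. Its assembly factors, which are not part of the finished enzyme, summed to 331 ± 148 CPM in neuroblast-like and 174 ± 81.4 CPM in pericyte-like wells, with all 5 classes overlapping. Among complexes I to IV and the ATP synthase, complex II, which also serves the citric acid cycle, was the least even between wells. Its sum, over only 4 genes, had a coefficient of variation of 100.2% between pericyte-like wells and 111% between endothelial-like wells. The complex I assembly factors had 147.3% and 149.9% in the same classes. By mouse the complex II sum came to 1085 ± 531 CPM in pericyte-like and 754 ± 89.1 CPM in oligodendrocyte-like wells.

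Complex III, the cytochrome bc1 complex, summed to 1409 ± 219 CPM in pericyte-like, 1375 ± 209 in astrocyte-like, 1104 ± 420 in neuroblast-like, 862 ± 218 in endothelial-like and 971 ± 78.0 CPM in oligodendrocyte-like wells. Complex IV, cytochrome c oxidase, came to 3462 ± 632, 2673 ± 414, 2535 ± 223, 1868 ± 271 and 2078 ± 143 CPM in the same order of classes. The ATP synthase came to 5498 ± 1208, 4878 ± 627, 4785 ± 758, 3121 ± 563 and 3417 ± 179 CPM in that order. All 3 thus had their lowest mean in endothelial-like and their highest in pericyte-like wells on the CPM scale. Of the pericyte-like total, Cox4i2 and Ndufa4l2 alone supplied a visible part: without them the members summed to 15283 ± 2203 CPM, against 16539 ± 2399 CPM with them, both as means over wells.

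The isoforms of complex IV differed most between classes. In pericyte-like wells Cox4i2 (ENSMUSG00000009876, chr2:152754173-152765037, plus strand, GENCODE vM21 on GRCm38) had 514, 546, 860, 916, 627, 1157, 597 and 579 CPM in mice 1 to 8. It was at 0 CPM in all 6 neuroblast-like mice. In astrocyte-like wells Cox4i2 was at 11.2 CPM in mouse 2 and 0 in the others, in endothelial-like wells at 9.28 and 13.4 CPM in mice 4 and 5 and 0 in the others, and in oligodendrocyte-like wells at 0.223 CPM in mouse 2 and 0.0303 in mouse 4. Every mouse was therefore high in pericyte-like wells and near 0 elsewhere, with no overlap. Over all wells of a class, Cox4i2 had 34303 counts in pericyte-like wells, or 737 CPM of their sum, and 8 counts in oligodendrocyte-like wells, or 0.0381 CPM. The fitted log2 fold of pericyte-like over oligodendrocyte-like sums was 15.84 ± 1.95 (SE, adjusted p = 3.411e-07 by edgeR's quasi-likelihood test). Over endothelial-like sums it was 10.74 ± 1.79 (adjusted p = 7.708e-05). Cox4i2 passed the fit's filter on low counts only through pericyte-like wells, where it was high, so it had to differ. These p-values thus describe the difference and are no separate evidence for it. Against neuroblast-like wells, taken at a floor of 3 counts over the class, Cox4i2 was at least 4601-fold higher.

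Ndufa4l2 (ENSMUSG00000040280, chr10:127514967-127517154, plus strand) followed the same division. Its levels in pericyte-like wells were 364, 728, 437, 446, 476, 621, 645 and 531 CPM in mice 1 to 8. It had no count in any of the 301 oligodendrocyte-like, 92 astrocyte-like or 34 neuroblast-like wells, and in endothelial-like wells it was at 28.1 CPM in mouse 4, 7.69 in mouse 8, 0.167 in mouse 7 and 0 in the other 5 mice. At the floor of 3 counts over a class, Ndufa4l2 was at least 39654-fold higher in pericyte-like than in oligodendrocyte-like wells, at least 9765-fold higher than in astrocyte-like wells and at least 3537-fold higher than in neuroblast-like wells. The fitted log2 fold over oligodendrocyte-like sums was 15.29 ± 1.91 (adjusted p = 6.741e-06), and over endothelial-like sums 9.91 ± 1.77 (adjusted p = 6.186e-04). A fitted fold against classes at or near 0 depends on the prior count of the method and is no bound.

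Ndufa4 (ENSMUSG00000029632, chr6:11900292-11907497, minus strand) ran the other way. In pericyte-like wells it was at 6.03, 15.6 and 6.64 CPM in mice 4, 7 and 8 and at 0 in the other 5. Elsewhere its lowest, median and highest mouse were 120, 217 and 297 CPM in astrocyte-like, 158, 256 and 400 CPM in neuroblast-like, 96.9, 186 and 263 CPM in endothelial-like, and 74.9, 89.8 and 137 CPM in oligodendrocyte-like wells. The highest pericyte-like mouse thus stayed under the lowest mouse of every other class. Ndufa4 was lower in pericyte-like than in oligodendrocyte-like sums by a log2 fold of -6.02 ± 1.28 (adjusted p = 4.819e-04), and than in endothelial-like sums by -6.55 ± 1.32 (adjusted p = 4.722e-04). The fit also held fibroblast-like and oligodendrocyte precursor-like sums. Of all its classes, Cox4i2 reached a count in 10% of wells only in the pericyte-like one, so its entry rested on the class in which it is high. Ndufa4l2 reached 10% in pericyte-like wells and in fibroblast-like wells (6 of 16), and in no other class of the fit. The fit without the low-count filter called both as well, in both contrasts.

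Cox4i1 (ENSMUSG00000031818, chr8:120668222-120674207, plus strand), the common form of subunit 4, did not vanish where Cox4i2 was high. Its lowest, median and highest mouse were 163, 471 and 621 CPM in pericyte-like, 485, 648 and 1112 CPM in astrocyte-like, 475, 575 and 648 CPM in neuroblast-like, 230, 421 and 550 CPM in endothelial-like and 575, 610 and 697 CPM in oligodendrocyte-like wells. Pericyte-like and endothelial-like mice overlapped over most of their range. The log2 fold of pericyte-like over oligodendrocyte-like sums was -1.29 ± 0.40 (adjusted p = 0.0162), but this call was lost without mouse 3 (adjusted p = 0.0605) or mouse 4 (0.06005) and under DESeq2 size factors, which put the fold at -0.81 (adjusted p = 0.135). Per exon length, Cox4i2 made up 76.3 ± 10.3% of the Cox4i1 and Cox4i2 pair in pericyte-like wells (SD over 8 mice, range 63.4 to 91.2%). Ndufa4l2 made up 99.5 ± 0.729% of its pair with Ndufa4 there (range 98.1 to 100.0%).

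**Figure D2:**
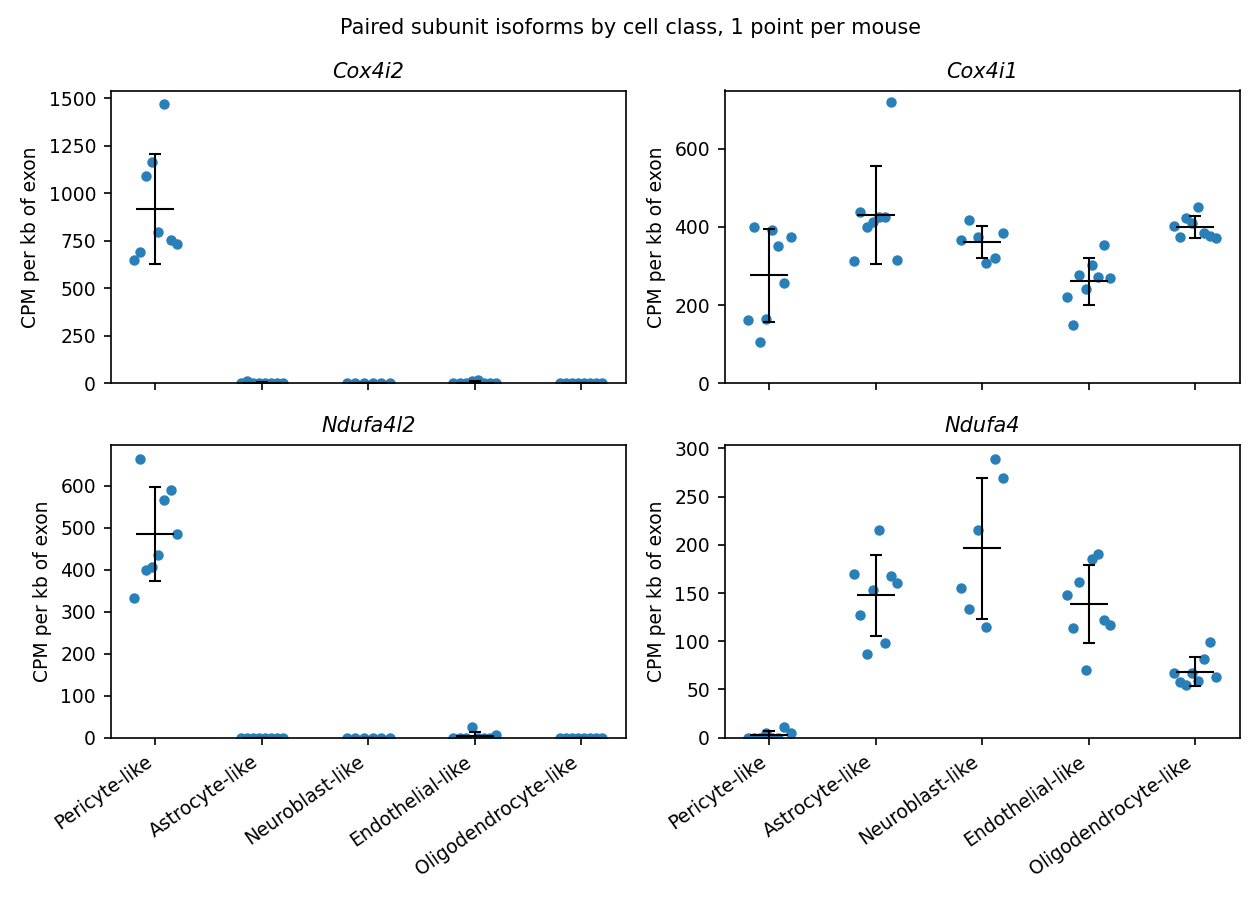
Level of Cox4i2, Cox4i1, Ndufa4l2 and Ndufa4 in CPM per kb of exon, by cell class, 1 point per mouse with the mean ± SD. Each panel has its own vertical axis from 0. Cox4i2 and Ndufa4l2 stand above 0 in all 8 mice in pericyte-like wells, Ndufa4 is near 0 there, and Cox4i1 is present in every class.

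The same division held well by well. Ndufa4l2 had a count in 70 of 76 pericyte-like wells, 92.1% (exact 95% interval 83.6 to 97.0%), and Cox4i2 in 73, 96.1% (88.9 to 99.2%). Both were present in 67 of the 76 wells, and no well lacked both. Ndufa4 had a count in 3 pericyte-like wells, 3.95% (0.822 to 11.1%), against 71 of 105 endothelial-like wells, 67.6% (57.8 to 76.4%), and 225 of 301 oligodendrocyte-like wells, 74.8% (69.4 to 79.6%). Ndufa4l2 had a count in 0 of 301 oligodendrocyte-like wells, for which the exact 95% upper bound is 1.22% of wells with a count, and a floor of 3 wells gives 0.997%. Median depth was 619732 counts in pericyte-like and 706891 in oligodendrocyte-like wells, and thinning every well to 50000 counts left the pericyte-like shares at 92.1% for Ndufa4l2, 94.7% for Cox4i2 and 3.95% for Ndufa4. These intervals and floors cover counting error only, since reads without molecular identifiers are not independent molecules.

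The small classes with other mural or stromal markers gave a mixed picture, described here with no test. Ndufa4l2 had a count in 3 of 4 smooth muscle-like and 6 of 16 fibroblast-like wells, and Cox4i2 in 2 of 4 and 0 of 16. Ndufa4 was seen in 3 of 4 and 6 of 16 of the same wells. The 14 oligodendrocyte precursor-like wells had no count of Cox4i2 or Ndufa4l2. A further 16 wells with more than 6000 genes, kept out of the classes, averaged 43.9 CPM of Ndufa4l2, 70.0 CPM of Cox4i2, 141 CPM of Ndufa4 and 616 CPM of Cox4i1.

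Other isoform sets varied less. Cox6b2, the testis isoform of Cox6b1, reached 61.3 and 39.9 CPM in astrocyte-like wells of mice 4 and 6 but was at 0 in 3 mice, and no contrast of it passed the test. Cox7a2l, a factor of respiratory supercomplexes, had a mean of 135 ± 84.0 CPM in neuroblast-like and 46.9 ± 15.2 CPM in oligodendrocyte-like wells, with overlapping mice, and a log2 fold of 0.47 ± 1.08 that did not pass. For the c subunit genes of the ATP synthase, Atp5g1, Atp5g2 and Atp5g3, the log2 folds of pericyte-like over oligodendrocyte-like sums were -1.46 ± 1.04, -0.84 ± 0.89 and 0.27 ± 0.77. The largest folds were -2.12 ± 1.06 for Atp5g1 in endothelial-like over oligodendrocyte-like sums and 2.09 ± 0.80 for Atp5g3 in astrocyte-like over endothelial-like sums. None of these 3 genes passed in any contrast. Of the isoform set of Ndufb4, the row Ndufb4 alone was tested, and it passed in none of the 6 contrasts.

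Of the 92 members 88 passed the filter on low counts in the fit over classes, which tested 12421 genes with the mouse as a block. Because log2 folds of all genes were centred away from 0 under this scaling, members are set beside all genes in each contrast. A gene that passed the filter only through the class in which it is high had to differ, so these counts are descriptions of the tested members.

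For pericyte-like over oligodendrocyte-like sums, 2 members were higher and 2 lower, while 6.49% of all tested genes were higher and 14.9% lower. The 4 were Cox4i2, Ndufa4l2, Ndufa4 and Cox4i1, all of complex IV, where 15 of 19 genes were tested. No member of the other complexes passed. The median log2 fold was -0.45 for members and -1.13 for all genes, and the genes at 0 in 1 class lie on the same side of that median when set to their bound. DESeq2 size factors put these medians at 0.01 and -0.76, with 46 members above 0 and 42 below against 20 and 68 under TMM. On both scales members lay above the median gene. Without the block for the mouse the medians were -0.35 for members and -0.45 for all genes, so most of that distance was gone.

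For endothelial-like over oligodendrocyte-like sums, 2 members were higher and 3 lower, while 7.44% of all genes were higher and 12.8% lower. Ndufa4l2 (log2 fold 5.38 ± 1.48, adjusted p = 0.0115) and Cox4i2 (5.10 ± 1.58, adjusted p = 0.0185) were higher on counts in only 4 and 2 of 105 endothelial-like wells. Pericyte markers in endothelial-like wells summed to 0.86 to 2059 CPM by mouse, with 2 of 7 at 50 CPM or more, and their part in this result was not tested. Ndufa4l2 lost its call without mouse 4 (adjusted p = 0.0520) or mouse 8 (0.0516), and Cox4i2 without mouse 4 (0.195) or mouse 5 (0.202). Lower were Ndufb9, an accessory subunit of complex I (-1.47 ± 0.49, adjusted p = 0.0247), Cox4i1 (-1.19 ± 0.40, 0.0287) and Atp5b (-0.93 ± 0.31, 0.0261), and DESeq2 size factors left none of these 3 calls. The medians were -0.70 for members and -0.89 for all genes, but -0.62 and -0.38 without the block for the mouse, which turns the position of members against all genes.

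For neuroblast-like over oligodendrocyte-like sums, 0 members were higher and 1 lower, while 3.83% of all genes were higher and 9.80% lower. The 1 was Cox6a1, at 152, 178 and 284 CPM in the lowest, median and highest neuroblast-like mouse against 228, 282 and 408 CPM in oligodendrocyte-like mice, with a log2 fold of -1.71 ± 0.55 (adjusted p = 0.0291). The groups overlapped in CPM, and the call was lost without mouse 1, 2, 3, 6 or 8 and under DESeq2 size factors (adjusted p = 0.109). Beside the 0 higher, 6 members had an unadjusted p under 0.05 in either direction, and DESeq2's own test also called 0 higher. The medians were -0.86 for members and -0.93 for all genes, and with library sizes counted without mitochondrial, ribosomal RNA and marker genes 0.12 and -0.13. Without the block for the mouse they were -0.83 and -0.43, so members then lay below all genes.

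For astrocyte-like over oligodendrocyte-like sums, 0 members passed in either direction by edgeR's quasi-likelihood test, while 7.68% of all genes were higher and 6.54% lower. A single member had an unadjusted p under 0.05, and DESeq2's test called 5 members higher and 0 lower. The member median was 0.12 and the median of all genes -0.41, with 55 of 88 members above 0.

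Against endothelial-like sums the astrocyte-like ones gave the longest list. Here 6 members were higher and 1 lower, while 12.5% of all genes were higher and 6.40% lower. The number of members called higher moved with the settings, from 0 without the low-count filter to 24 with DESeq2's test. Ndufc2, an accessory subunit in the membrane arm of complex I, had 149, 397, 767, 625, 563, 332, 805 and 365 CPM in astrocyte-like wells of mice 1 to 8 and 0, 77.0, 91.3, 118, 58.8, 72.5, 49.9 and 113 CPM in endothelial-like wells. All astrocyte-like mice were above all endothelial-like mice. The log2 fold of Ndufc2 was 3.01 ± 0.87 (adjusted p = 0.00984), and only the fit without the low-count filter lost it (adjusted p = 0.0714). Uqcrc1, a core protein of complex III, was at 119, 302 and 415 CPM in the lowest, median and highest astrocyte-like mouse and 21.1, 93.4 and 184 CPM in endothelial-like mice (log2 fold 1.92 ± 0.70, adjusted p = 0.0488). Cox8a (1.49 ± 0.47, adjusted p = 0.0180) and Ndufb9 (1.40 ± 0.48, 0.0349) were also higher, and these 3 lost their calls when some single mice were left out.

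Atp5l, the g subunit of the ATP synthase, had the largest fold among the members called higher there, 5.55 ± 1.95 (adjusted p = 0.0389), but rested on few mice. In astrocyte-like wells it was at 65.0, 44.7 and 23.3 CPM in mice 1, 4 and 6 and under 1 CPM in the other 5, and in endothelial-like wells it was at 3.58 CPM at most. The call was lost without mouse 1, 2, 4 or 7. Ndufa4l2 was lower (-5.81 ± 1.97, adjusted p = 0.0440) on the endothelial-like counts of 3 mice, and this call was lost without mouse 1, 2, 3, 4, 7 or 8. The sixth higher member was Atp5b (log2 fold 1.20 ± 0.31, adjusted p = 0.00358). In the fit without the low-count filter 0 members were called higher in this contrast. The member median of 0.84 stood beside 0.45 for all genes, and 78 of 88 members lay above 0.

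For pericyte-like over endothelial-like sums, 3 members were higher and 1 lower, while 4.72% of all genes were higher and 6.29% lower. Beside Cox4i2, Ndufa4l2 and Ndufa4, Atp5b was higher (log2 fold 0.99 ± 0.31, adjusted p = 0.0291). Atp5b had 1684, 1957, 3053, 2261, 1152, 2668, 1485 and 2355 CPM in pericyte-like wells of mice 1 to 8 and 832, 1131, 781, 927, 1115, 728, 1164 and 966 CPM in endothelial-like wells. The lowest pericyte-like mouse overlapped the highest endothelial-like mouse, and the call was lost without mouse 1, 3, 4, 6 or 8 and without the low-count filter. The medians were 0.26 for members and -0.20 for all genes.

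**Figure D3:**
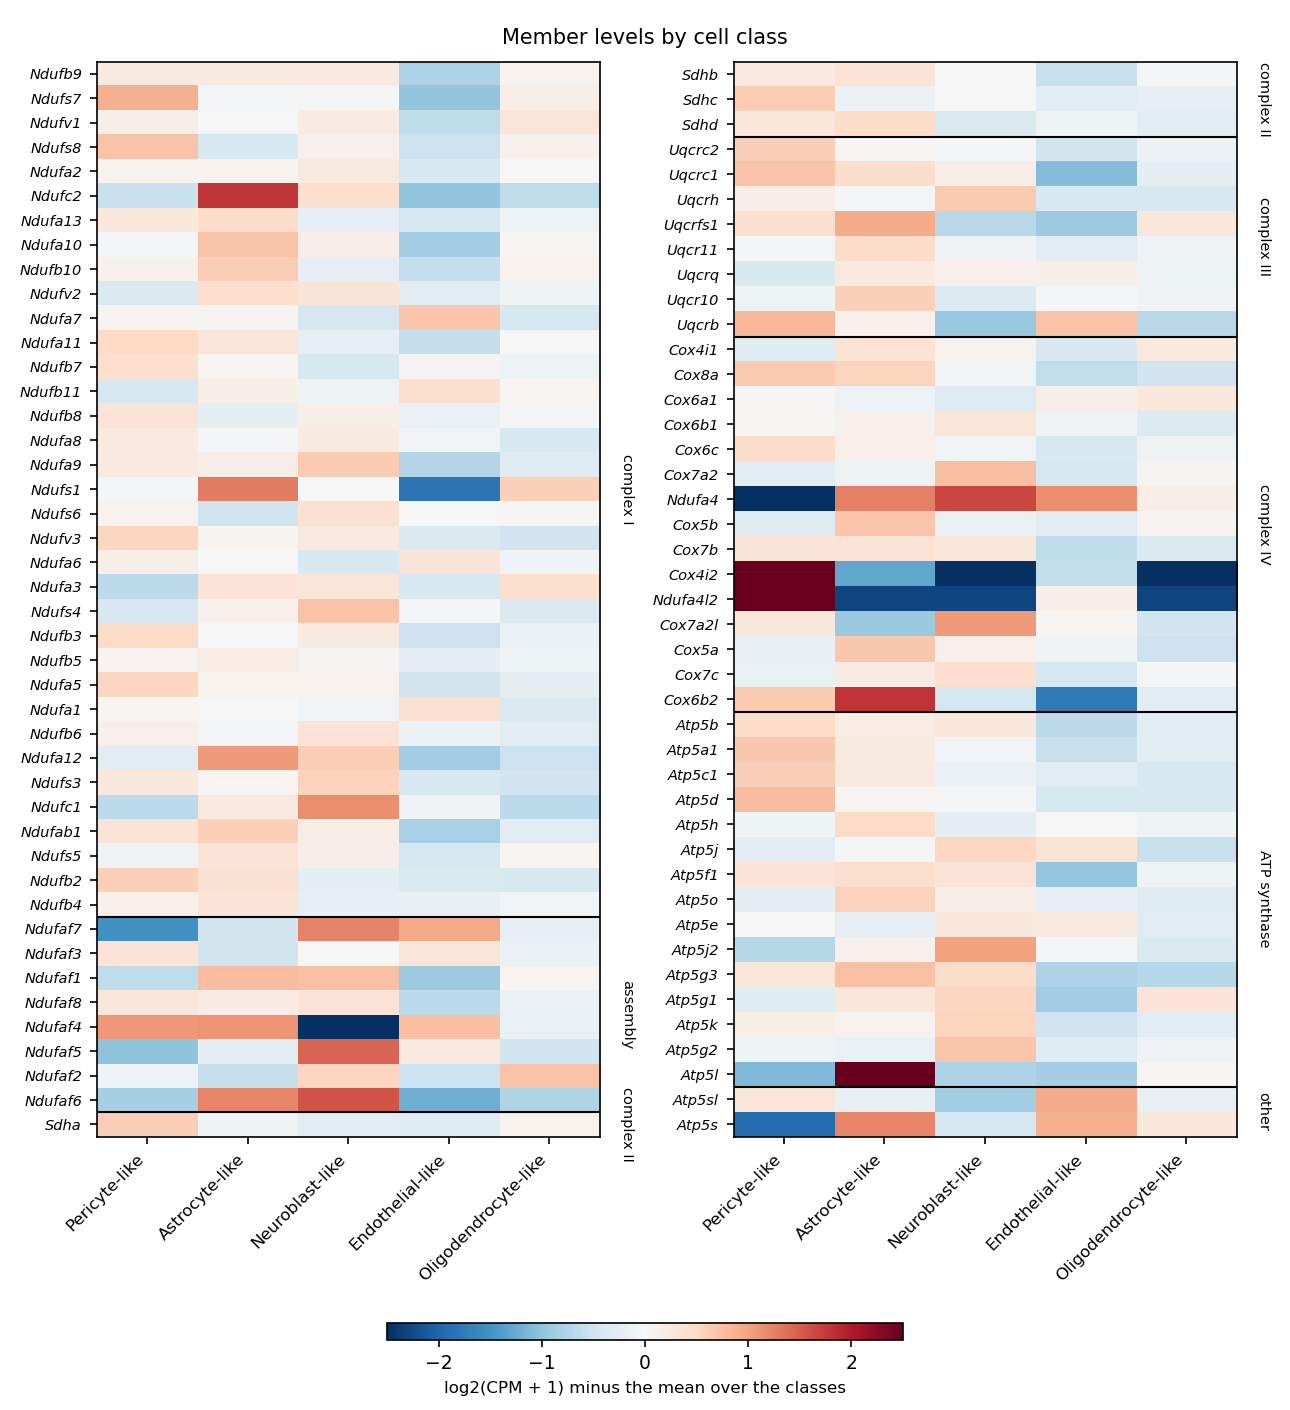
Members with a mean of at least 2 CPM by cell class, except 1 that is not shown, grouped by complex and ordered by level. Colour gives log2(CPM + 1) of the class mean minus its mean over the 5 classes, with the scale ending at ±2.5. Most rows are pale, and the strongest colours belong to Cox4i2, Ndufa4l2 and Ndufa4 in the pericyte-like column and to the low genes Atp5l and Ndufaf4.

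Other mitochondrial genes were taken from lists and are given by counts. Of the 13 mitochondrially encoded protein genes 9 had rows and 8 were tested. Against oligodendrocyte-like sums 5 of the 8 were lower in pericyte-like, 4 in neuroblast-like and 4 in endothelial-like sums, and 0 were higher in any of these 3. For example, mt-Co1, the catalytic subunit of complex IV, had a log2 fold of -1.80 ± 0.25 in pericyte-like over oligodendrocyte-like sums (adjusted p = 5.819e-07), and mt-Cytb of complex III -1.27 ± 0.27 (adjusted p = 3.755e-04). In astrocyte-like over endothelial-like sums 6 of 8 were higher, and in astrocyte-like over oligodendrocyte-like sums 0 passed, with 1 at an unadjusted p under 0.05. As summed levels, the mitochondrially encoded genes came to 5914 ± 1082 CPM in pericyte-like, 13721 ± 4194 in astrocyte-like, 8442 ± 3252 in neuroblast-like, 6012 ± 1260 in endothelial-like and 9884 ± 881 CPM in oligodendrocyte-like wells. Pericyte-like wells thus held the highest mean nuclear and the lowest mean mitochondrial sum on the CPM scale. Their mitochondrial sum overlapped that of endothelial-like wells, at 4444 to 7349 against 3980 to 8319 CPM by mouse. The nuclear sum overlapped that of astrocyte-like wells, which had the highest mean after TMM scaling.

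Among 36 assembly factors and partners, 33 were tested. Higd1b, a relative of the complex IV regulator Higd1a, was higher in pericyte-like sums, at 1094, 1442 and 2124 CPM in the lowest, median and highest mouse. It was at or under 0.974 CPM in every mouse of the astrocyte-like, neuroblast-like and oligodendrocyte-like wells and reached 30.9 CPM in endothelial-like wells of 1 mouse. Its fitted log2 fold was 16.51 ± 1.76 over oligodendrocyte-like sums (adjusted p = 7.208e-09) and 12.81 ± 1.81 over endothelial-like sums (adjusted p = 3.967e-06). As for Ndufa4l2, a fold against levels at or near 0 depends on the prior count and is no bound. A gene that enters the fit only through the class in which it is high has to differ. Ttc19, a complex III maintenance factor, was lower in pericyte-like than in oligodendrocyte-like sums (-6.30 ± 2.04, adjusted p = 0.0219), at levels of 10.8 CPM or less in both. For pericyte-like over endothelial-like sums these 2 genes also passed, in the same directions. For endothelial-like (Lyrm7) and for neuroblast-like (Higd1a) over oligodendrocyte-like sums 0 were higher and 1 lower, and both astrocyte-like contrasts had 0, with 1 and 4 at an unadjusted p under 0.05.

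Of the 14 citric acid cycle genes, which feed electrons into the chain, 0 passed in any of the 6 contrasts, with up to 2 at an unadjusted p under 0.05. Among 10 regulators of mitochondrial biogenesis, Ppargc1a, a coactivator of respiratory genes, was higher in astrocyte-like than in oligodendrocyte-like sums (log2 fold 13.26 ± 2.11, adjusted p = 6.992e-05). It had 92.1, 166 and 272 CPM in the lowest, median and highest astrocyte-like mouse and at most 0.0501 CPM in any oligodendrocyte-like mouse. That fold, against levels near 0, depends on the prior count and is no bound. Where entry into the fit rested on astrocyte-like wells, the gene had to differ. Ppargc1b was higher in pericyte-like than in oligodendrocyte-like sums (7.37 ± 2.39, adjusted p = 0.0232), at a median of 4.20 CPM in pericyte-like mice. Ppargc1a also passed over endothelial-like sums in the astrocyte-like contrast and Ppargc1b in the pericyte-like one, and the other 8 regulators passed in no contrast. Of 14 hypoxia-related genes 12 were tested, and for pericyte-like over oligodendrocyte-like sums 3 were higher (Epas1, Ldha, Adm) and 2 lower (Pfkfb3, Bnip3). Epas1, the hypoxia-inducible factor of vessel cells, was at 435, 633 and 1134 CPM in the lowest, median and highest pericyte-like mouse and at 961, 1889 and 2984 CPM in endothelial-like mice. The list's members therefore did not move one way in pericyte-like sums. Its counts were 4 higher and 1 lower for endothelial-like, 2 and 0 for astrocyte-like and 0 and 1 for neuroblast-like over oligodendrocyte-like sums, 0 and 2 for pericyte-like and 2 and 3 for astrocyte-like over endothelial-like sums.

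Between wells of 1 class the member sum varied least in oligodendrocyte-like wells, with a coefficient of variation of 16.7%, and most in astrocyte-like wells, with 40.6%. In neuroblast-like, pericyte-like and endothelial-like wells it was 21.1%, 26.7% and 27.7%. As a description over wells that share mice and library batches, the rank correlation of the member sum with the mitochondrially encoded sum was 0.68 over 34 neuroblast-like wells, 0.099 over 301 oligodendrocyte-like wells and -0.236 over 76 pericyte-like wells. With total counts the correlation was at most 0.315, in 105 endothelial-like wells. Over 92 astrocyte-like wells the complex I sum and the ATP synthase sum had a correlation of 0.605, against 0.043 to 0.206 in the other 4 classes. The member sum and the citric acid cycle sum had one of 0.518 there, against -0.028 to 0.231 in the other 4.

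Between mice given the mimic and Control mice, no respiratory chain gene passed the test. Over all kept wells the member sum was 13197, 11839, 13248 and 12871 CPM in miR-132 mice 2, 4, 6 and 8, against 11547, 12744, 12555 and 13029 CPM in Control mice 1, 3, 5 and 7. The groups overlapped, with means of 12788 ± 655 and 12469 ± 645 CPM (SD, n = 4 each), and miR-132 mice were higher by 372 CPM on 17 April and by 267 CPM on 19 April. Within classes the sums were 11498 ± 834 in miR-132 and 11336 ± 587 CPM in Control mice for oligodendrocyte-like wells, and 15206 ± 1553 and 15027 ± 2167 CPM for astrocyte-like wells. For endothelial-like wells they were 9653 ± 1277 in 4 miR-132 and 10644 ± 1281 CPM in 3 Control mice, since Control mouse 1 had only 4 such wells, and for pericyte-like wells 17458 ± 1527 and 15619 ± 2973 CPM. The differences between dates had opposite signs in oligodendrocyte-like (-222 and 548 CPM) and astrocyte-like wells (2062 and -1704 CPM), and the same sign in endothelial-like (-537 and -848 CPM) and pericyte-like wells (1318 and 2360 CPM). The mice of the treatments overlapped in all 4 classes. On the TMM scale, the log2 difference of the sum of tested members was also followed with single mice left out. It ran from -0.002 to 0.063 over all wells, -0.047 to 0.032 in oligodendrocyte-like and -0.153 to 0.038 in astrocyte-like wells. In endothelial-like wells it ran from -0.236 to -0.048 and in pericyte-like wells from 0.057 to 0.185. Summed markers overlapped between treatments for all 12 lists, with oligodendrocyte markers at 25792 to 42004 CPM in miR-132 and 22116 to 48687 CPM in Control mice.

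No gene passed in any of the 5 treatment comparisons, so 0.0% of all genes were called in each. Of the members 86 were tested over all wells, 83 in oligodendrocyte-like, 85 in astrocyte-like, 79 in endothelial-like and 81 in pericyte-like wells. An unadjusted p under 0.05 in edgeR's quasi-likelihood test was reached by 1, 0, 1, 1 and 0 members in that order, and by 395 of 8823, 232 of 7396, 108 of 7360, 118 of 5939 and 40 of 5466 genes. DESeq2's test also called 0 members in all 5. The member median log2 fold was 0.05 over all wells, 0.01 in oligodendrocyte-like, -0.09 in astrocyte-like, 0.04 in endothelial-like and 0.20 in pericyte-like wells. For all genes it was 0.00, 0.00, 0.18, 0.30 and 0.02. On simulated counts with known changes the test over all wells recovered 12.9% of 2-fold, 67.2% of 4-fold and 92.4% of 16-fold changes. In astrocyte-like, endothelial-like and pericyte-like wells it recovered at most 5% of 4-fold and 20% of 16-fold changes, so most changes of these sizes would not have been called there.

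**Figure D4:**
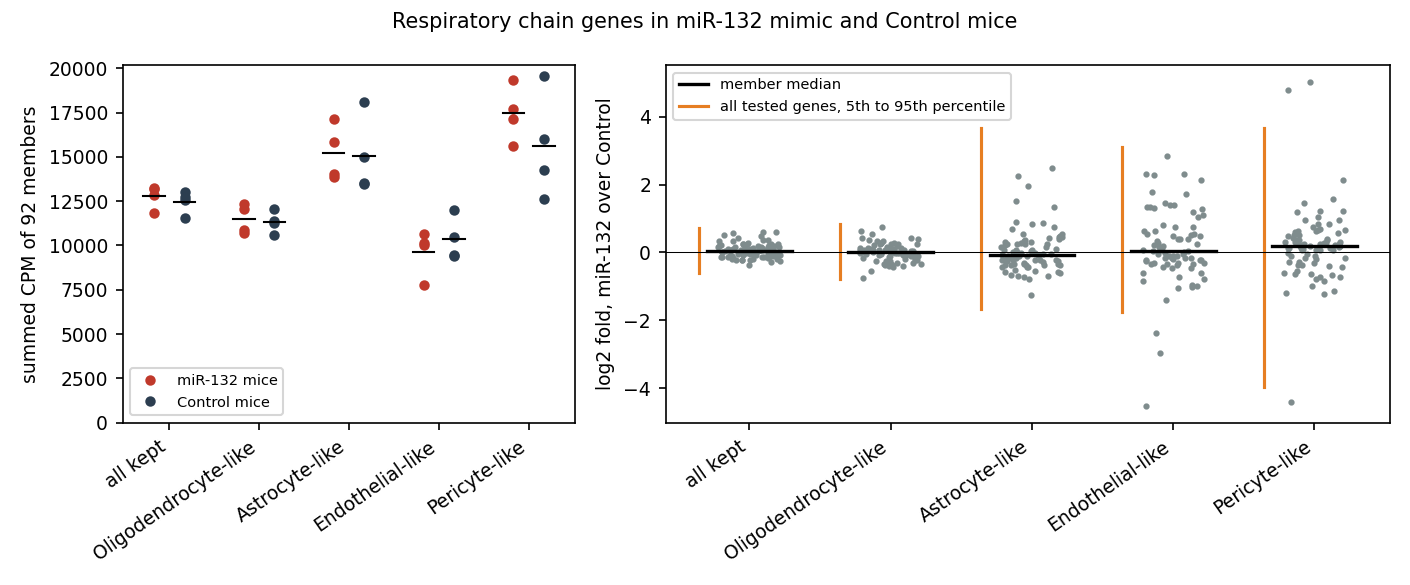
Left, summed CPM of the 92 members per mouse over all kept wells and in 4 classes, with miR-132 mice left of Control mice and a line at each mean. Endothelial-like points include Control mouse 1, which was not in the test. Right, log2 fold of miR-132 over Control for each tested member as points, with the member median in black and the 5th to 95th percentile of all tested genes in orange. Member medians lie between -0.09 and 0.20, within the range of all genes.

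Members of smallest p are given as values. Over all wells Atp5g3, which encodes the c subunit of the ATP synthase, had 107, 94.5, 104 and 82.9 CPM in miR-132 mice and 54.3, 69.5, 57.9 and 94.3 CPM in Control mice, with a log2 fold of 0.57 ± 0.24 (p = 0.0369, adjusted p = 0.9997). The groups overlapped through Control mouse 7. In oligodendrocyte-like wells Sdhb, the iron-sulfur subunit of complex II, had 196, 254, 222 and 300 CPM in miR-132 mice and 138, 184, 216 and 168 CPM in Control mice (0.39 ± 0.18, adjusted p = 0.9989). These overlapped as well.

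In astrocyte-like wells Ndufs4, a complex I subunit whose loss causes a mitochondrial encephalopathy in mice, had 131, 183, 197 and 106 CPM in miR-132 mice and 74.1, 68.1, 11.95 and 31.5 CPM in Control mice. The groups did not overlap, the log2 fold was 2.26 ± 0.86 (p = 0.0251), and the adjusted p was 1.0. In endothelial-like wells Atp5o, the stalk subunit of the ATP synthase, had 218, 220, 176 and 225 CPM in miR-132 mice and 131, 85.3 and 69.4 CPM in Control mice 3, 5 and 7, again without overlap (1.28 ± 0.54, p = 0.0452, adjusted p = 0.9998). When wells were mapped by sample title, all 4 of these folds changed sign. Ndufs4 and Atp5o were picked for their smallest p, which favours separated groups, and the share of all genes without overlap was not counted.

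The next members in order of p were Ndufs4, Ndufv2, Ndufaf1 and Ndufaf7 over all wells, with log2 folds of 0.37 to 0.59. In oligodendrocyte-like wells they were Ndufb7, Ndufv1, Ndufs8 and Uqcr11, with -0.39 to -0.34. In astrocyte-like wells they were Uqcrc1 (0.88), Atp5g1 (1.34), Atp5f1 (-0.69) and Cox6b1 (-0.67), in endothelial-like wells Ndufb9 (-0.95), Atp5c1 (-0.78), Atp5g3 (2.32) and Ndufb11 (-1.03), and among those in pericyte-like wells Ndufb10 (-1.19), Ndufv2 (1.57), Atp5f1 (-0.84) and Ndufa1 (5.03). All had an adjusted p of 0.9989 or more. The 3 members with a miR-132 seed match had log2 folds over all wells of 0.06 ± 0.18 (Cox6c), -0.25 ± 0.27 (Ndufa12) and 0.37 ± 0.29 (Ndufab1), and none passed. The mimic itself is not a transcript that gene counts report. The row of its host locus, Mir132, had 0 counts in all 4 miR-132 mice, and 25 and 32 counts in Control mice 1 and 3 and 0 in Control mice 5 and 7.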

How the data were processed

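The authors deposited raw read counts for 768 wells in a single table of genes. The tools listed are Seurat 2.3.1, featureCounts 1.5.1, Subread, STAR and FastQC with mm10 as the build, credited to the submitters' processing notes, with no settings. Counts per 1e6 (CPM) were computed per well, and a mouse's level is the mean over its wells. No doublet caller was run, and wells with more than 6000 genes were kept out of classes. A class needed a mean log2(CPM + 1) lead of 1 over the next list and 50% of its markers at 50 CPM. Class labels from Leiden clusters named by the same markers were the same for 630 of 646 wells.

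Counts were summed per mouse and class (at least 3 wells, or 5 for treatment) and tested with edgeR 4.0.16 in R 4.3.3 (quasi-likelihood, TMM, two-sided, Benjamini-Hochberg over all tested genes, threshold 0.05). Classes were fitted with the mouse as a block, since they come from the same animals, and treatment with the sort date. The class fit also held fibroblast-like sums of 4 mice and oligodendrocyte precursor-like sums of 3 mice, which shared its filter and scaling. Genes passed filterByExpr and a limit of 10% of wells with a count. In the class fit this limit had to be met in at least 1 class, and in a treatment fit over the wells compared. On simulated counts the fit of pericyte-like over oligodendrocyte-like sums recovered 26.7% of 2-fold, 52.1% of 4-fold and 76.1% of 16-fold changes, with 4 false calls. That simulation gave every sum the means and dispersions of oligodendrocyte-like sums. These pool 22 to 53 wells per mouse, against 5 to 18 in pericyte-like sums, so recovery at the spread of pericyte-like sums was not measured. Named genes are, per class contrast, up to 5 called members with the largest fold each way, the isoform sets, the 5 members with the highest CPM per kb over all kept wells, and per treatment comparison the 5 members of smallest p, 1 of which is not reported here. Other genes come from lists of mitochondrially encoded, assembly and partner, citric acid cycle, biogenesis and hypoxia genes. Members and lists were chosen with earlier results of these data known. Alternatives were DESeq2 1.42.0 size factors and its Wald test, no low-count filter, library sizes without mitochondrial, ribosomal RNA and marker genes (the other library sizes), wells mapped by title, clusters as classes, a limit of 15% mitochondrial counts, at least 5 wells per sum, no block or date, each mouse left out, and, chosen after seeing the data, the newer quasi-likelihood method of edgeR.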

Additional observations from a re-analysis of the deposited data

Results flagged for a closer look

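A single mouse stood far from the others of its group for 21 of 158 groups of mice examined. The nominal rate of about 1 in 20 cannot be set against this count. In some groups most mice had no count, as for Cox4i2 in astrocyte-like wells, so a single mouse with counts stood apart. No excess over chance is therefore read from the flagged groups, which are listed as values. In the treatment comparisons these were Ndufs4 over all wells in miR-132 mouse 6, the highest of its group at 138 CPM, Atp5o in endothelial-like wells of miR-132 mouse 6, the lowest of its group at 176 CPM, and Cox6b1 in astrocyte-like wells of Control mouse 7, the highest of its group at 424 CPM.

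Across all mice of a class, high single mice were seen for astrocyte-like wells in Cox4i2 (11.2 CPM, mouse 2), Cox6b1 (424 CPM, mouse 7), Cox4i1 (1112 CPM, mouse 7) and Ndufb4 (37.5 CPM, mouse 6). In pericyte-like wells they were Ndufa4 (15.6 CPM, mouse 7), Cox6a1 (686 CPM, mouse 3), Cox6b1 (354 CPM, mouse 2), Ndufc2 (341 CPM, mouse 5) and Atp5l (1.78 CPM, mouse 3), while Atp5g1 had no count in mouse 5 (0.0 CPM). In endothelial-like wells they were Ndufa4l2 (28.1 CPM, mouse 4), Ndufb4 (27.6 CPM, mouse 7), Cox6b2 (3.84 CPM, mouse 6) and Atp5l (3.58 CPM, mouse 3). In neuroblast-like wells they were Cox8a (710 CPM, mouse 5), Ndufb4 (24.3 CPM, mouse 2) and Cox6b2 (11.9 CPM, mouse 3), and in oligodendrocyte-like wells Cox4i2 (0.223 CPM, mouse 2).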

How the results depend on the processing

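Counts of called members in the class contrasts moved with the settings, and all treatment counts stayed at 0 under every alternative run. For endothelial-like over oligodendrocyte-like sums, 2 higher became 1 with wells mapped by title, and 3 lower became 5 with DESeq2's test and with the newer edgeR method and 0 with DESeq2 size factors, with no low-count filter and with the other library sizes. For astrocyte-like over oligodendrocyte-like sums, 0 higher became 5 with DESeq2's test and 1 with DESeq2 size factors, wells mapped by title, no block, at least 5 wells per sum and the newer method. For pericyte-like over oligodendrocyte-like sums, 2 higher became 5 with DESeq2's test. There 2 lower became 4 with that test and by title, 5 with the newer method, and 1 with DESeq2 size factors, no filter and the other library sizes. For neuroblast-like over oligodendrocyte-like sums, 1 lower became 5 with DESeq2's test, 4 by title, 2 without the block and with the newer method, and 0 with DESeq2 size factors, no filter and the other library sizes. For pericyte-like over endothelial-like sums, 3 higher became 15 and 1 lower became 2 with DESeq2's test, and 1 lower became 2 with the newer method. For astrocyte-like over endothelial-like sums, 6 higher became 24 with DESeq2's test, 13 with the newer method, 10 by title, 3 with the other library sizes and 0 with no filter, and 1 lower became 0 with the newer method. The cause was not tested.

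Leaving out single mice gave 0 to 2 higher and 0 to 3 lower for endothelial-like, 0 higher for astrocyte-like, 2 higher and 1 to 3 lower for pericyte-like and 0 to 1 lower for neuroblast-like over oligodendrocyte-like sums, 2 to 3 higher and 1 lower for pericyte-like over endothelial-like sums, and 2 to 6 higher with 0 to 1 lower for astrocyte-like over endothelial-like sums. Without the block for the mouse, 3 members were lower in pericyte-like over oligodendrocyte-like and 7 higher in astrocyte-like over endothelial-like sums, and the 6 calls of Cox4i2, Ndufa4l2 and Ndufa4 in pericyte-like sums held.

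Cox4i1, which passed in neither contrast, turned to 0.25 with DESeq2 size factors and its test (0.2459 and 0.2458) and 0.0699 with the other library sizes for astrocyte-like over oligodendrocyte-like sums. For pericyte-like over endothelial-like sums it turned to 0.14 (0.1398 and 0.1397) and 0.0963 in the same fits, with a range of -0.2711 to 0.0312 when single mice were left out. Ndufa4 turned to -0.0254 for astrocyte-like over endothelial-like sums with the other library sizes. With wells mapped by title the treatment folds turned over all wells for Atp5g3 (-0.13), Ndufs4 (-0.0356), Ndufv2 (-0.15) and Ndufaf7 (-0.55). In oligodendrocyte-like wells they turned for Sdhb (-0.0354), Ndufv1 (0.0232), Ndufs8 (0.0446) and Uqcr11 (0.0438), in astrocyte-like wells for Ndufs4 (-0.74), Uqcrc1 (-0.21), Atp5g1 (-0.12), Atp5f1 (0.21) and Cox6b1 (0.0130), in endothelial-like wells for Atp5o (-0.89), Atp5c1 (0.0813), Atp5g3 (-0.54) and Ndufb11 (0.32), and in pericyte-like wells for Ndufv2 (-0.24), Atp5f1 (0.47) and Ndufa1 (-0.0207). Thinning wells to 50000 counts put the oligodendrocyte-like share with Cox4i2 at 0.0%, against 0.664%, and with Ndufa4 at 69.1%, against 74.8%.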
